A study of Mus musculus with 6 samples.

Results

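Oxidative phosphorylation is the last stage of respiration, in which electrons pass along complexes of the inner mitochondrial membrane and the proton gradient they build drives ATP synthase. The nuclear genes of complexes I, III and IV and of ATP synthase were taken from the deposited gene tables by symbol, as the ids that begin with Nduf (followed by a, b, c, s or v and a digit), Uqcr, Cox4 to Cox8, or Atp5. The exonic tables hold 81 such ids among 23227, and the intronic tables hold 82 among 23231, the extra one being an id written Uqcr with no reads. By complex, the exonic ids are 37 of complex I, 8 of complex III, 19 of complex IV and 17 of ATP synthase. Not every id is a subunit. Cox4nb is a part of the endoplasmic reticulum membrane complex, and Atp5s and Atp5sl are named after ATP synthase without being part of the enzyme, which leaves 69 subunits among the 72 ids that were measured.

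RNA depleted of ribosomal RNA was sequenced from immortalized mouse mesenchymal stem cell lines, named fibroblasts in the sample titles. The 6 groups were Dicer KO (Dicer -/-), Dicer WT (Dicer f/f), and WT cells transfected with Pbx3, Sox9 or Tead4 or with an empty vector. Dicer cuts microRNA precursors, Pbx3 is a homeodomain protein, Sox9 drives cartilage formation and Tead4 is the DNA-binding partner of YAP. The WT and the KO line are each monoclonal, and an effect of the clone cannot be told apart from one of the genotype. Nor can fewer cells of a type and less RNA per cell be told apart in bulk RNA. All groups were grown in the same medium with serum.

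The nuclear genome supplies most subunits of these complexes, and the mitochondrial genome supplies the rest. Complex I takes electrons from NADH, complex III passes them from ubiquinol to cytochrome c, complex IV hands them to oxygen, and the rotary ATP synthase uses the gradient. Complexes I and III have core subunits that carry electrons or shape the enzyme and smaller accessory subunits around them. The transcription factors NRF1, GABP (an ETS factor), YY1 and ESRRA are known activators of many of these nuclear genes.

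Sequences of 300 bases around the start of a gene, from 250 before to 50 after it, came from RefSeq (GRCm38.p6), and 66 of the 82 ids had an entry. Of the 7 members that changed in Dicer KO cells, 4 had one. They are shown because they set the promoters of members that rose (Cox5b and Ndufa10) beside those of members that fell (Uqcrh and Uqcr11). Capitals mark the ETS motif CCGGAAG or its reverse complement.
Cox5b, chr1:36691237-36691536, plus strand: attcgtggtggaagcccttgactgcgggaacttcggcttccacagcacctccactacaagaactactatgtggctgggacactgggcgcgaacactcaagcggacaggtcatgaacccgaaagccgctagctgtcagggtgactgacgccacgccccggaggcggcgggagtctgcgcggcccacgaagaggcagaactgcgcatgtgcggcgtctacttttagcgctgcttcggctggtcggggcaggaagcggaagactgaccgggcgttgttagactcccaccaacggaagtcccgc
Ndufa10, chr1:92473709-92474008, minus strand: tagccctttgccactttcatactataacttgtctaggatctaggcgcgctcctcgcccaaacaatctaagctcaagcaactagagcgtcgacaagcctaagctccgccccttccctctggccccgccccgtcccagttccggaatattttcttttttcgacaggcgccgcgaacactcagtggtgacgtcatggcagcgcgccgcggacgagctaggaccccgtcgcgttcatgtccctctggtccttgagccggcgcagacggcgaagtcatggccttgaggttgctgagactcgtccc
Uqcrh, chr4:116075021-116075320, minus strand: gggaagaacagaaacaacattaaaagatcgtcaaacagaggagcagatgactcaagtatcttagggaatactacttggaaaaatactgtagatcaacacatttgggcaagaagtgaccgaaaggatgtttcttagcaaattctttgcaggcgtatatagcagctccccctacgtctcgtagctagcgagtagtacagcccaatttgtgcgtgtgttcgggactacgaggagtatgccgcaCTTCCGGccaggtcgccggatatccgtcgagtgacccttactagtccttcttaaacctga
Uqcr11, chr10:80406772-80407071, minus strand: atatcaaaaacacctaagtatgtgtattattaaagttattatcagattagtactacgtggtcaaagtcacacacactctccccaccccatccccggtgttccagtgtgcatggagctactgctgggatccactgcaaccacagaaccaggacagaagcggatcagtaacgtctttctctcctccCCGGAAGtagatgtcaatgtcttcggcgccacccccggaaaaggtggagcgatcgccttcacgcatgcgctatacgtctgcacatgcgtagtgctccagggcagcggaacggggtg

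The ETS motif occurred in the Uqcrh and Uqcr11 promoters, and none of the 4 motifs searched occurred in those of Cox5b and Ndufa10. Over both strands, 14 of the 66 promoters (21.2%) held CCGGAAG, against 9.93% of all 27025 genes with an entry. Among the other holders were Cox8a and Ndufs3, whose log2 changes in Dicer KO cells were above 0, and Atp5k and Atp5l, whose changes were below 0, and none of these passed the test. The NRF1 motif, GCGCA and GCGC with any base between them, was present in 15 of them (22.7%), among others those of Uqcrc1, Atp5c1, Ndufa8 and Cox6a1, against 5.19% of all genes. The YY1 motif AAGATGGCG was present in 8 (12.1%), among others those of Ndufs7, Ndufa9 and Atp5j2, against 1.64%. The ESRRA motif TCAAGGTCA was present in 1 (1.52%), that of Atp5g3, against 0.466%. Each motif was counted by itself, so a promoter can count under several of them, as that of Atp5k does under NRF1 and ETS. These matches describe the sequence only.

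The deposited group means allowed the reads of 2 libraries per group to be recovered, here called a and b, with 6130267 to 23501655 exonic and 3156973 to 10205497 intronic reads per library. Normalised reads are reads divided by the size factor of the library. Dicer1 had 935 and 1067 normalised exonic reads in Dicer KO cells, against 1407 and 1343 in Dicer WT cells, and missed the threshold (limma adjusted p = 0.0859), although a total over the gene does not check a deletion of part of it. Pbx3 rose by 7.04 ± 0.21 and Tead4 by 7.17 ± 0.18 on the log2 scale (± SE, here and below) over vector, while Sox9 stood at 1.29 ± 0.39 and missed the threshold (limma adjusted p = 0.272). Of 10 stromal markers 9 were measured, and Thy1 was at 0 in all 12 libraries. They summed to 3903 to 4395 RPM (reads per 1000000 exonic reads of the library) in Dicer KO cells, against 5817 to 5968 in Dicer WT cells, and their part in the results below was not tested. Over the 12 libraries haematopoietic markers summed to 4.21 to 18.1, adipocyte markers to 0 to 5.29, and endothelial, epithelial and skeletal muscle markers each to at most 0.596.

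Nearly all members were abundant. Measured means an average of at least 50 normalised reads over the 4 libraries of a comparison, and 72 of the 81 exonic ids reached it in every comparison. The lowest of these was Atp5s, at 56.5 in the Sox9 comparison. In exonic RPM per kilobase of the principal transcript, the median member stood at 97.6, against 15.5 for 10113 genes. Atp5b, the catalytic beta subunit of ATP synthase, had the highest level, with a median over the 12 libraries of 1037 and a range of 843 to 1174. In complex IV the highest was Cox4i1, the regulatory subunit 4, at 478. Under the complex I symbols it was Ndufa4, at 322, a protein first assigned to complex I and since found with complex IV. In complex III it was Uqcrh, the hinge protein, at 268. The lowest measured were Ndufv3 under complex I at 29.1, Uqcrc2 under complex III at 51.1, Cox4nb under complex IV at 8.92 and Atp5s under ATP synthase at 4.4. The median level per kilobase was 79.6 for complex I, 126 for complex III, 202 for complex IV and 144 for ATP synthase, with ranges that overlapped.

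**Figure D1:**
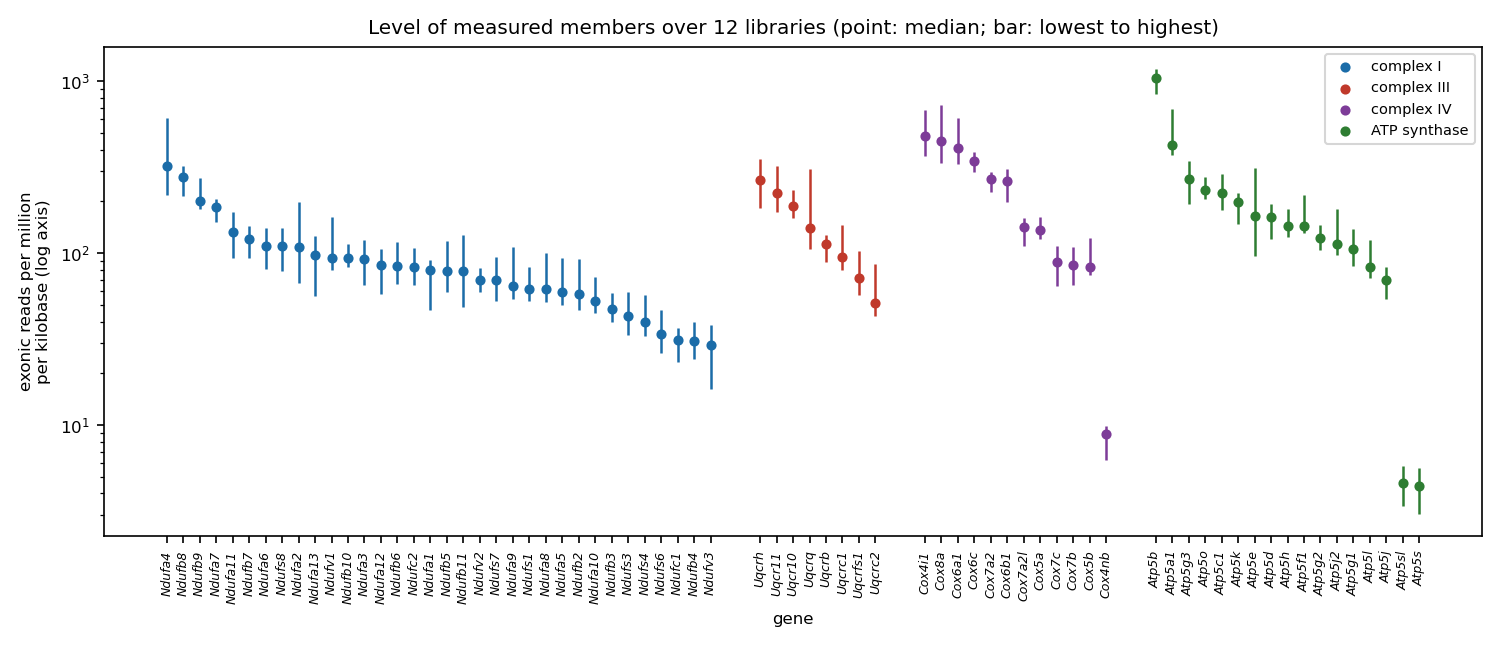
Level of 71 of the 72 measured members in exonic RPM per kilobase (log axis), by complex, over the 12 libraries of 6 groups; the point is the median and the bar runs from the lowest to the highest library. Atp5b is highest at 1037, and the ids that are not subunits (Cox4nb, Atp5sl and Atp5s) have the lowest medians, at 8.92, 4.63 and 4.4.

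Where a complex IV subunit comes in several forms, these cells used the ubiquitous one. Cox4i1, Cox6a1, Cox6b1, Cox7a2 and Cox8a had median levels of 478, 407, 262, 269 and 451 RPM per kilobase. Their tissue-specific partners were near 0. Cox8b and Cox8c had 0 exonic reads in all 12 libraries, Cox6b2 and Cox4i2 had at most 1 per library, and Cox7a1, the muscle form, had 0 to 8. Cox7b2, a testis form of Cox7b, had 0 exonic reads and 1 to 9 intronic reads per library. A count of 0 allows a level of up to 3 reads in a library, for counting error only.

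The 3 genes for the c subunit of the ATP synthase ring, which give the same mature protein, were all used. Atp5g3 was highest in each library, at 194 to 342 RPM per kilobase. Atp5g1, at 84.2 to 137, and Atp5g2, at 104 to 145, overlapped. Cox7a2l, which takes part in joining complexes III and IV into supercomplexes, stood at 109 to 161, under Cox7a2 in every library.

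A few members fell below the minimum and are not among the 72. Cox6a2, the heart and muscle form of subunit 6a, had 27 and 29 exonic reads in Dicer KO cells, against 2 and 4 in Dicer WT cells. The ratio of summed reads, scaled to depth, was 8.81, with a 95% lower bound for counting error of 3.80. In the authors' deposited table its log2 fold change was 3.11, with an adjusted p of 0.0172. In a fit with no minimum above 0, which tested 77 members, Cox6a2 rose by 2.83 ± 0.52 on the scale of log2 reads plus 1 (± SE, limma adjusted p = 0.0243). Per kilobase, Cox6a2 stood at 1.69 and 2.06 RPM in KO and at 0.127 and 0.318 in WT. With Pbx3 it stood at 1.09 and 1.73, with Sox9 at 1.2 and 1.33 and with Tead4 at 0.406 and 0. The vector libraries stood at 0.857 and 0.267. The KO and Pbx3 levels thus overlapped, and all of these levels rest on few reads. Ndufa4l2, the hypoxia-responsive relative of Ndufa4, had 0 and 1 reads in KO and 1 and 1 in WT. In transfected cells it had 18 and 18 reads with Pbx3, 12 and 7 with Sox9 and 20 and 12 with Tead4, against 16 and 23 with vector. Its intronic reads there were nearly the same, at 18 and 16, 12 and 6, 20 and 11, and 16 and 22. Whether these reads come from messenger RNA of Ndufa4l2 is therefore uncertain. Ndufs5, an accessory subunit of complex I, had at most 1 exonic read but 11 to 69 intronic reads per library. The authors' annotation is not given in the sources used here, so whether these reads fall in exons or introns of Ndufs5 is uncertain.

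Summed over members, the share of exonic reads was 1.25% and 1.19% in the Dicer KO libraries, against 1.08% and 1.15% in the Dicer WT libraries, without overlap. In transfected cells it was 0.929% and 1.03% with Pbx3, 0.956% and 0.931% with Sox9 and 1.02% and 1.06% with Tead4, against 0.931% and 1.04% with vector, and all 3 factor groups overlapped vector. ATP synthase genes stood at 5635 and 5301 RPM in KO, against 4564 and 4776 in WT, without overlap. In transfected cells they stood at 4953 and 4955 with Tead4 and at 4277 and 4048 with Sox9, against 4333 and 4798 with vector, so that both Tead4 libraries lay above and both Sox9 libraries below the vector libraries. With Pbx3 they stood at 4478 and 4914, which overlaps vector. Without Atp5a1 and Atp5b all members together stood at 8818 and 8394 in KO, against 8003 and 8561 in WT, which overlap. ATP synthase genes without Atp5a1 and Atp5b stood at 1937 and 1765 in KO, against 1760 and 1815 in WT, which also overlap. Complex I genes stood at 3703 and 3579 in KO, against 3216 and 3520 in WT, without overlap. Complex III genes, at 1049 and 929 in KO against 947 and 970 in WT, and complex IV genes, at 2128 and 2121 in KO against 2080 and 2257 in WT, overlapped. A sum follows its most abundant genes, and these shares were not tested.

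**Figure D2:**
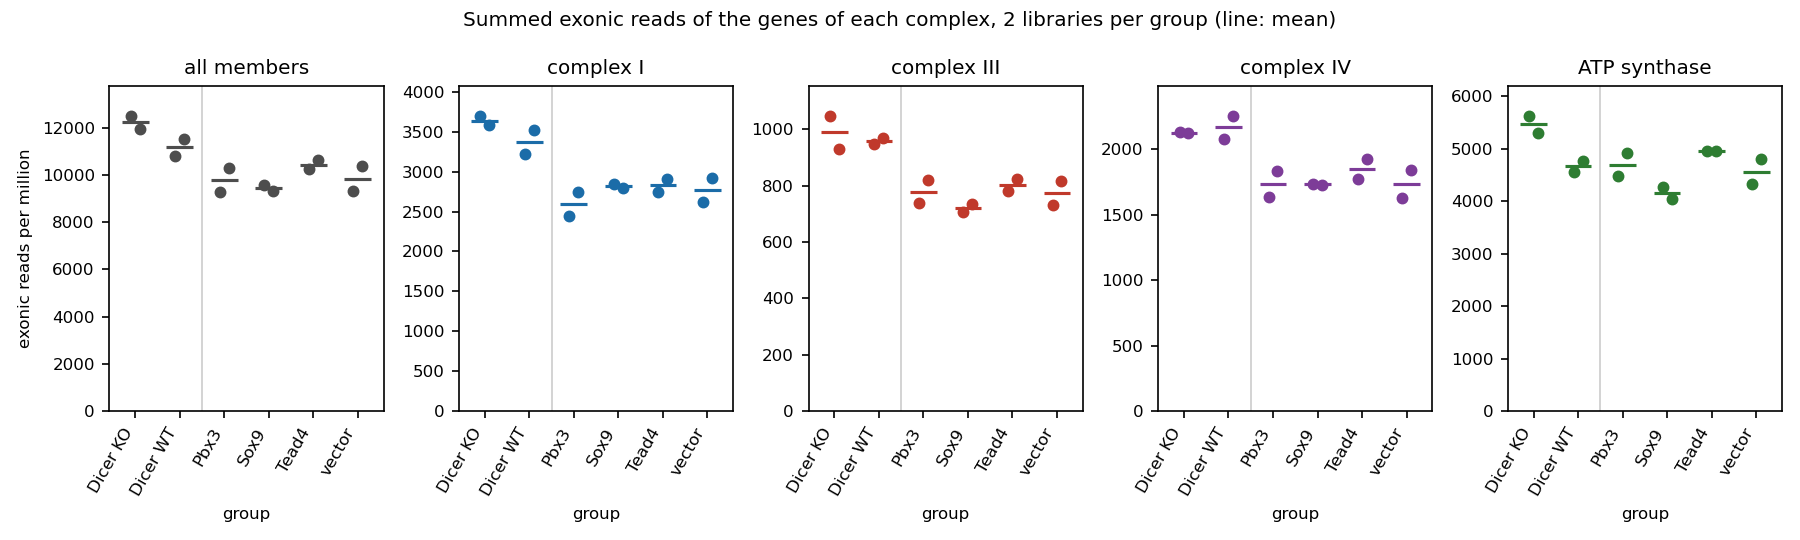
Summed exonic RPM (y axis) of all members and of the members of each complex, for each of the 6 groups (x axis); points are the 2 libraries and the line is their mean. ATP synthase genes reach 5635 and 5301 in Dicer KO, above 4564 and 4776 in Dicer WT, and the ATP synthase sums of Tead4 (4953 and 4955) and Sox9 (4277 and 4048) lie above and below those of vector (4333 and 4798). For all members together the factor groups overlap vector. Without Atp5a1 and Atp5b, which are included in the sums drawn, the ATP synthase sums of Dicer KO and Dicer WT overlap.

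Between Dicer KO and Dicer WT cells, 5 of the 72 measured members rose and 2 fell in exonic reads, and 65 did not pass (limma, adjusted p under 0.05 over all genes). That is 9.72% of members, against 16.6% of all 10706 genes tested, of which 9.28% rose and 7.36% fell. The share called among members was thus below the background. At an unadjusted p under 0.05 there were 21 members, against 34.2% of all genes. Members had a median log2 fold change of 0.07, against 0.01 for all genes, and ranged from −0.77 to 0.71. Of the 72, 64 (88.9%) lay within 0.5 of 0 on the log2 scale, against 66.3% of all genes. Libraries did not overlap for 28 members that were higher and 20 that were lower in KO, beside 33.0% and 30.3% of all genes.

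**Figure D3:**
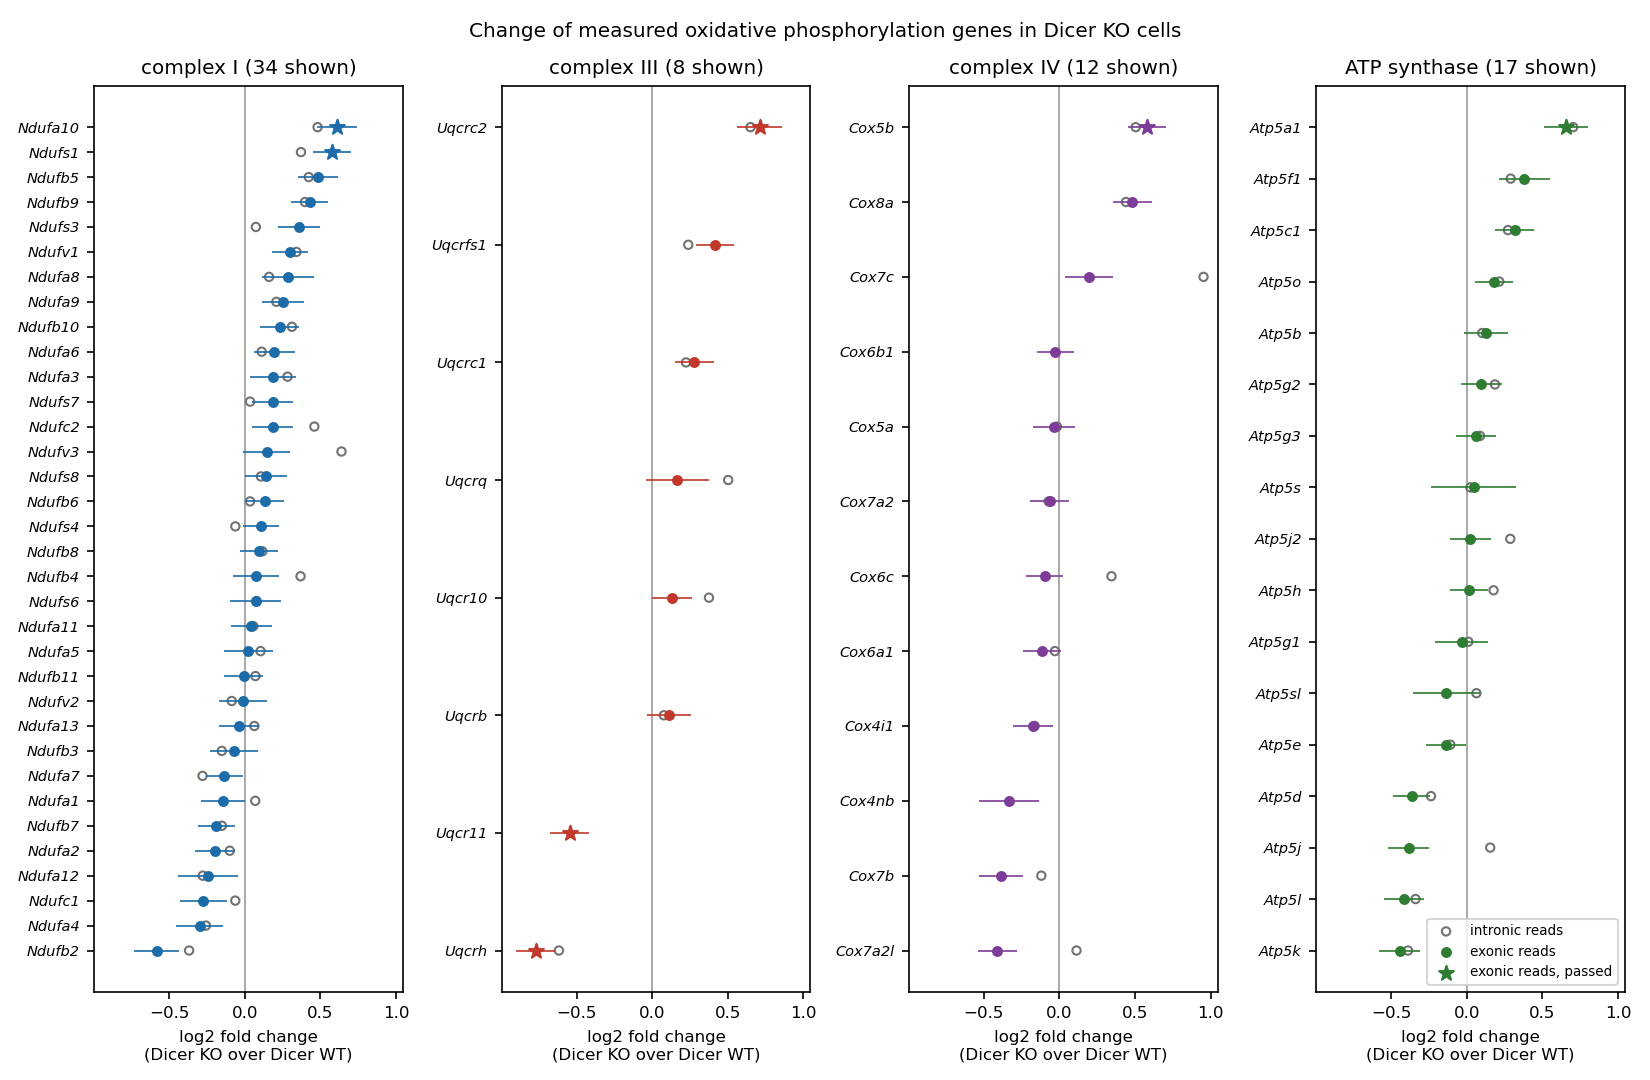
Log2 fold change (x axis, Dicer KO over Dicer WT) of 71 of the 72 measured members (y axis), by complex; filled points are exonic reads with the SE from limma, stars passed at an adjusted p under 0.05 and open circles are intronic reads where measured. The stars are Ndufa10, Ndufs1, Uqcrc2, Cox5b and Atp5a1 to the right of 0, and Uqcr11 and Uqcrh to the left.

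Complex I had 2 of 35 measured members that rose and 0 that fell. Its median was 0.11. Ndufs1, the largest core subunit, which carries iron-sulfur clusters, had 4647 and 4227 normalised exonic reads in KO cells, against 2998 and 2941 in WT cells. It rose by 0.58 ± 0.13 (limma adjusted p = 0.0387). Ndufa10, an accessory subunit, had 3177 and 2801 reads in KO, against 1974 and 1938 in WT, and rose by 0.61 ± 0.13 (limma adjusted p = 0.0387). For both genes each KO library exceeded each WT library.

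The 7 core subunits of complex I encoded in the nucleus had a median of 0.30, and 6 of them were above 0. Ndufs3, which sits in the arm that carries electrons, stood at 0.36 ± 0.14 without passing. Ndufv1, which binds NADH, stood at 0.30 ± 0.12. The exception was Ndufv2, its partner, at −0.01 ± 0.16. The 28 accessory members had a median of 0.07, and Ndufb2 was lowest, with 623 and 568 reads in KO, against 923 and 860 in WT. Its value of −0.58 ± 0.15 missed the threshold (limma adjusted p = 0.0555). Ndufb5 at 0.49 ± 0.13 and Ndufb9 at 0.43 ± 0.12, both of the membrane arm, also did not pass, and nor did Ndufa4 at −0.30 ± 0.16.

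Complex III held changes in both directions, with 1 member that rose and 2 that fell among 8. Uqcrc2, a core protein related to mitochondrial processing peptidases, had 3512 and 2916 reads in KO, against 2021 and 1888 in WT. It rose by 0.71 ± 0.15, a fold of 1.64 (limma adjusted p = 0.0346). Its partner Uqcrc1 stood at 0.28 ± 0.13 and Uqcrfs1, the Rieske iron-sulfur protein that transfers electrons, at 0.42 ± 0.13, and neither passed.

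The pair that fell are small accessory proteins of complex III. Uqcrh had 2356 and 2152 reads in KO cells, against 3699 and 3996 in WT cells. It fell by 0.77 on the log2 scale, with an SE of 0.13 and a 95% interval of −1.10 to −0.44 (limma adjusted p = 0.0213). Uqcr11 had 2167 and 1995 reads in KO, against 3122 and 2951 in WT, and fell by 0.55 with an SE of 0.13 (limma adjusted p = 0.0447). Neither overlapped between the groups. Their neighbours Uqcr10, Uqcrb and Uqcrq stood at 0.13 ± 0.13, 0.11 ± 0.15 and 0.17 ± 0.21. The gene name table holds 6 pseudogenes named after members, 2 of them after Uqcrh and the rest after Atp5c1, Atp5k and Atp5l. How reads shared with such copies were counted is not given in the sources used here. The levels of Uqcrh, Atp5c1, Atp5k and Atp5l are uncertain to that extent. The libraries were strand-specific, but whether strand was used in counting is likewise not given, so reads of an overlapping antisense gene cannot be set apart.

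Complex IV had 1 of 12 measured members that rose and 0 that fell, with a median of −0.08. Cox5b, a zinc-binding subunit on the matrix side, had 2283 and 2220 reads in KO, against 1527 and 1487 in WT. It rose by 0.58 ± 0.12 (limma adjusted p = 0.0368), and the libraries did not overlap. Cox8a, a small membrane subunit, had 8459 and 8531 reads in KO, against 5752 and 6428 in WT, and at 0.48 ± 0.13 missed the threshold (limma adjusted p = 0.063). Below 0 were 9 of the 12, among them Cox7a2l at −0.41 ± 0.13, Cox7b at −0.39 ± 0.14 and Cox4i1 at −0.18 ± 0.13, and none of them passed. The ubiquitous forms Cox6a1, Cox6b1 and Cox7a2 stood at −0.12 ± 0.12, −0.03 ± 0.12 and −0.07 ± 0.13.

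In ATP synthase, 1 of 17 measured members rose and 0 fell. Atp5a1, the alpha subunit of the catalytic F1 head, had 36681 and 33312 reads in KO, against 22585 and 21801 in WT. It rose by 0.66 ± 0.14, a fold of 1.58 (limma adjusted p = 0.039). Atp5b, which forms the head together with it, had 43001 and 42334 reads in KO, against 38790 and 39293 in WT, or 0.13 ± 0.15, and did not pass. The other F1 subunits lay on both sides of 0, with Atp5c1, the central shaft, at 0.32 ± 0.13 and Atp5d at −0.36 ± 0.12.

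The c ring genes Atp5g1, Atp5g2 and Atp5g3 stood at −0.03 ± 0.17, 0.09 ± 0.14 and 0.06 ± 0.13. In the stalk that holds the head, Atp5f1 was at 0.38 ± 0.17, Atp5o at 0.18 ± 0.12, Atp5h at 0.02 ± 0.12 and Atp5j at −0.38 ± 0.14. The small membrane subunits e and g, from Atp5k and Atp5l, which take part in joining the enzyme into dimers, stood at −0.44 ± 0.14 and −0.41 ± 0.13. None of these passed.

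**Figure D4:**
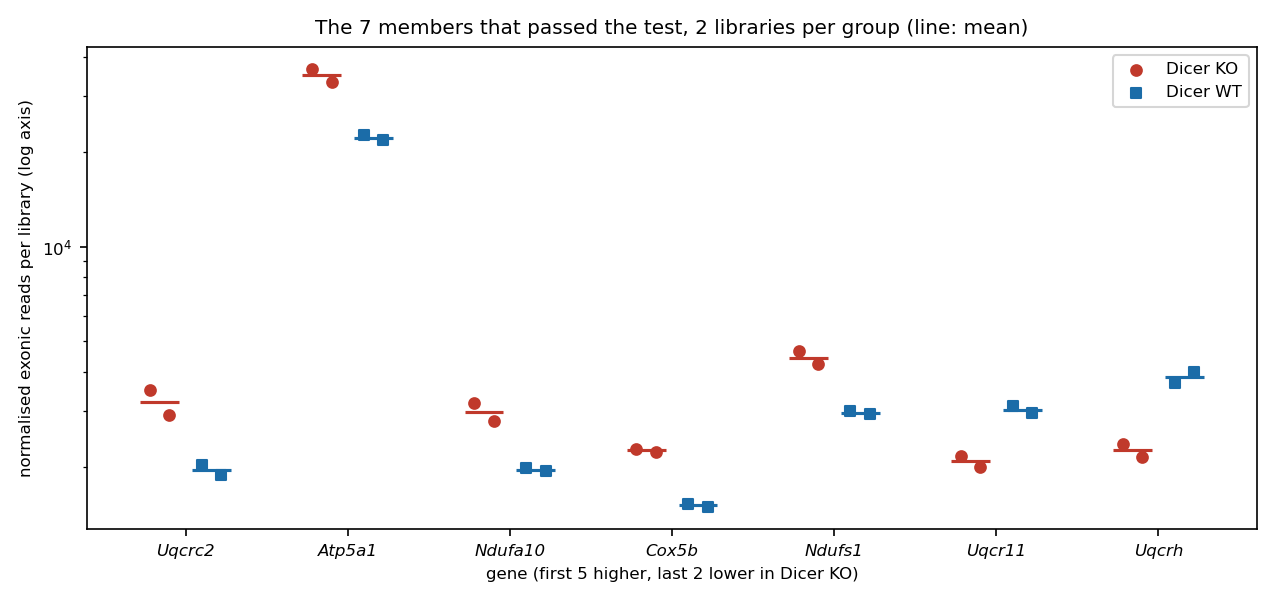
Normalised exonic reads (log axis) of the 7 members that passed, in the 2 libraries of Dicer KO (circles) and of Dicer WT (squares), with the mean of each group as a line. For Uqcrc2, Atp5a1, Ndufa10, Cox5b and Ndufs1 both KO libraries lie above both WT libraries, and for Uqcr11 and Uqcrh below them.

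Members that rose and fell differed in transcript length. The genes that fell have principal transcripts of 547 bases (Uqcrh) and 445 bases (Uqcr11), while those that rose have 2471 (Atp5a1), 2590 (Ndufs1), 2020 (Ndufa10), 1896 (Uqcrc2) and 865 bases (Cox5b). Members under 1000 bases had a median of 0.02 (47 members, 1 rose and 2 fell), and longer members one of 0.26 (25 members, 4 rose and 0 fell). Over all genes the same split gave a median of −0.18 for 622 short genes, of which 22 rose and 80 fell. For 9869 longer genes the median was 0.03, and 960 rose and 689 fell. The part of length in the members' changes was not tested.

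The calls rested on few libraries. Leaving out Dicer KO library a or Dicer KO library b left 0 members called, beside 5.0% and 5.58% of all genes. Leaving out Dicer WT library a left Uqcrc2 and Uqcrh (2, beside 17.8% of all genes), and leaving out Dicer WT library b left Uqcrh (1, beside 16.9%). None of these changed the direction of any of the 7. A fit without the mean-variance trend called Uqcrh alone (1, beside 13.1% of all genes). The authors' deposited adjusted p called Uqcrh at 0.0227 and Uqcrc2 at 0.0360 (2 members, beside 14.0% of all genes). With no minimum above 0 Atp5a1 missed the threshold (limma adjusted p = 0.0524). A fit over all 6 groups called 17 members (23.6%), beside 23.8% of all genes.

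Intronic reads, mostly a measure of unspliced RNA, were measured for 70 ids. By limma 0 of 70 passed, against 6.51% of all 10215 genes, with 10 at an unadjusted p under 0.05, against 25.0% of all genes. The authors' deposited adjusted p called 0 members and 6.53% of all genes. The members' median was 0.10, against 0.02 for all genes. Uqcrh had 1263 and 1081 normalised intronic reads in KO, against 1811 and 1773 in WT, or −0.62 ± 0.14, the lowest, followed by Ndufs5 at −0.61 ± 0.28, with a mean of 52.6 just above the minimum and the doubt on its exons given above, and Atp5k at −0.39 ± 0.21. The highest was Cox7c at 0.95 ± 0.30. Among members that rose in exonic reads, Atp5a1 stood at 0.70 ± 0.17, Uqcrc2 at 0.65 ± 0.18, Cox5b at 0.50 ± 0.20, Ndufa10 at 0.48 ± 0.17 and Ndufs1 at 0.37 ± 0.14. Each, like Uqcrh, has the sign of its exonic change, and Uqcr11 was under the minimum.

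Over the 69 ids measured in both kinds of reads, exonic and intronic changes had the same sign for 60 (87.0%), beside 84.4% of 9402 genes of all kinds. The correlation across these 69 was r = 0.794 and rho = 0.810, and across all 9402 it was r = 0.935 and rho = 0.863. Both kinds of reads come from the same libraries, and genes are not independent replicates. The exonic change minus the intronic change was then tested in the same libraries. Among the 69 members, 1 was lower and 0 were higher (limma, adjusted p under 0.05), against 3.92% of all genes, of which 2.89% were higher and 1.03% lower.

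Atp5j, the coupling factor 6 of the stalk, was the member that passed. It had 1016 and 931 exonic reads in KO, against 1256 and 1282 in WT. Its intronic reads were 697 and 628 in KO, against 618 and 572 in WT. The exonic values were lower and the intronic values higher in KO, both without overlap. The difference was −0.54 ± 0.10 (limma adjusted p = 0.0453), and did not pass without KO library a, KO library b or WT library b. Cox7c, a small membrane subunit of complex IV, had the lowest difference, at −0.76 ± 0.18, and missed the threshold (limma adjusted p = 0.0721). Cox7a2l followed at −0.52 ± 0.26. The highest were Ndufs3 at 0.29 ± 0.12, Ndufs1 at 0.21 ± 0.10 and Uqcrfs1 at 0.18 ± 0.14, and none of these passed.

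Other genes of the pathway were counted in lists of known function, beside the 9.28% of all genes that rose and 7.36% that fell, and the median of 0.01 over all genes. Of the 4 genes of complex II, the membrane enzyme shared with the citric acid cycle, 0 passed, and Sdha and Sdhd stood at 0.37 ± 0.14 and −0.41 ± 0.16. Among 6 measured carriers, subunits and regulators that the symbols above miss, 1 fell. This was Atpif1, the inhibitor of ATP hydrolysis by ATP synthase, with 1600 and 1835 reads in KO, against 2831 and 2818 in WT, at −0.72 ± 0.14 (limma adjusted p = 0.0273). Cyc1, the cytochrome of complex III, stood at 0.65 ± 0.19 and missed the threshold (limma adjusted p = 0.0716). Of 29 measured genes listed as assembly factors, 2 rose (6.90%) and 0 fell. Lrpprc, which is in that list but stabilises mitochondrial messenger RNA, rose by 0.79 ± 0.19 (limma adjusted p = 0.0459). Cox15, which makes heme a for complex IV, rose by 0.63 ± 0.14 (limma adjusted p = 0.0421).

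The citric acid cycle, which supplies electrons to the chain, had 5 of 21 measured genes that rose (23.8%) and 0 that fell, with a median of 0.31. Dld, the shared subunit of the pyruvate and oxoglutarate dehydrogenases, had 2550 and 2527 reads in KO, against 1085 and 1107 in WT, and rose by 1.21 ± 0.12 (limma adjusted p = 0.0065), also in intronic reads. Others that rose were Pdhb at 1.01 ± 0.16, Suclg2 at 0.70 ± 0.14 and Idh3b at 0.53 ± 0.12. Of 25 genes of mitochondrial import and cristae, 3 rose (12%, near the 9.28% of all genes) and 0 fell, with a median of 0.21. These were the chaperone Hspa9 at 1.02 ± 0.15, the channel Vdac1 at 0.81 ± 0.15 and the fusion protein Opa1 at 0.71 ± 0.16. Among 19 regulators of mitochondrial biogenesis 0 passed in exonic reads. Esrra stood at 0.46 ± 0.15 and Gabpa at −0.40 ± 0.15. Ppargc1a, the coactivator PGC-1alpha, had 19.3 and 24.8 reads in KO, against 62.2 and 243 in WT, and missed the threshold (limma adjusted p = 0.0694). In intronic reads its relative Ppargc1b rose, the 1 call among 17 measured genes of that list (5.88%). Of all 10215 genes tested in intronic reads, 292 rose and 373 fell (6.51% called). In the comparisons of the factors with vector 0 genes of any of these lists passed in either kind of reads. Subunits of the mitochondrial genome could not be analysed, as 0 of the 26 symbols searched for them were among the ids.

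The comparisons of Pbx3, Sox9 and Tead4 with vector ask what differs in WT cells transfected with each factor, and they share the vector libraries. The rise of Sox9 itself missed the threshold (limma adjusted p = 0.272), unlike those of Pbx3 and Tead4. For Pbx3, 0 of 72 members passed in exonic reads (limma), against 0.0102% of 9826 genes, with 0 at an unadjusted p under 0.05, against 2.37% of all genes. For Sox9, 0 of 72 passed (limma), against 0.547% of 9698 genes, with 2 at an unadjusted p under 0.05, against 13.0%. For Tead4, 0 of 72 passed (limma), against 0.143% of 9796 genes, with 7 at an unadjusted p under 0.05, against 15.9%. The authors' deposited adjusted p called 0 members in each, beside 0.132%, 1.12% and 2.09% of all genes. Member medians were −0.05, −0.04 and 0.01 for Pbx3, Sox9 and Tead4. The typical 95% interval of a member reached 0.42, 0.40 and 0.34 to each side. These intervals are not adjusted for the number of genes tested, so changes larger than that in single members could also go unseen.

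**Figure D5:**
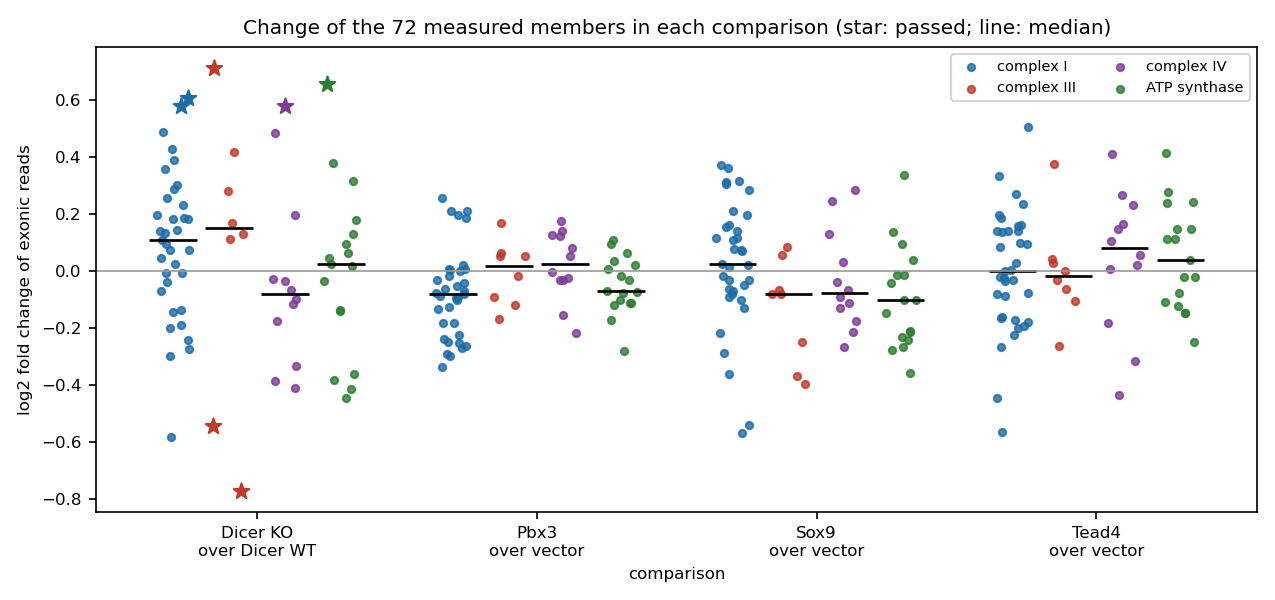
Log2 fold change of exonic reads (y axis) of the 72 measured members in each of the 4 comparisons (x axis), coloured by complex; stars passed in limma and black lines are medians. Dicer KO members spread from −0.77 to 0.71 and Pbx3 members from −0.34 to 0.26, and stars occur in the Dicer KO comparison only.

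With Pbx3 the highest members were Ndufb6 at 0.26 ± 0.16, Ndufa2 at 0.21 ± 0.21 and Ndufs6 at 0.21 ± 0.19, and the lowest were Ndufb2 at −0.34 ± 0.18, Ndufc1 at −0.30 ± 0.17 and Ndufb4 at −0.29 ± 0.17. All 6 are accessory subunits of complex I, a class that holds 28 of the 72 measured members, and none of them passed. Ndufb2 had 217 and 220 reads with Pbx3, against 260 and 293 with vector, without overlap. Libraries did not overlap for 9 of 72 members that were higher and 15 that were lower with Pbx3. Beside them stood 1191 and 1233 of all 9826 genes.

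With Sox9 the lowest member was Ndufa12, an accessory subunit near the electron input, with 689 and 531 reads, against 989 and 814 with vector. It stood at −0.57 ± 0.20 and did not pass (limma adjusted p = 0.309). Ndufb4 followed at −0.54 ± 0.19 and Uqcrq, a small subunit of complex III, at −0.40 ± 0.18. The highest were Ndufa2 at 0.37 ± 0.20, Ndufs3 at 0.36 ± 0.17 and Atp5e, the epsilon subunit, at 0.34 ± 0.26. By complex the medians were 0.02 for complex I, −0.08 for complex III, −0.08 for complex IV and −0.10 for ATP synthase, of which 13 of 17 members were below 0. Without vector library b Ndufa12 passed (1 of 72 members, or 1.39%), beside 13.1% of all genes.

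With Tead4 the highest members were Ndufa2 at 0.50 ± 0.19, Atp5e at 0.41 ± 0.20 and Cox8a at 0.41 ± 0.12. Cox8a had 2523 and 2568 reads, against 1883 and 1950 with vector (limma adjusted p = 0.216). The lowest were Ndufb11, an accessory subunit of the membrane arm, at −0.57 ± 0.19, Ndufa1 at −0.45 ± 0.17 and Cox7c at −0.44 ± 0.13. Ndufb11 had 433 and 552 reads with Tead4, against 649 and 809 with vector, and did not pass (limma adjusted p = 0.252). Without vector library b 9 members passed (12.5%), 6 higher and 3 lower, beside 24.2% of all genes, and without vector library a Ndufb11 did (1), beside 11.6% of all genes. Uqcrh, which fell in Dicer KO cells, stood at 0.38 ± 0.14 with Tead4, 0.06 ± 0.17 with Sox9 and −0.02 ± 0.19 with Pbx3.

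In intronic reads 0 of 63 members passed for Pbx3, 0 of 61 for Sox9 and 0 of 63 for Tead4 (limma), beside 0.0%, 1.99% and 1.61% of all genes. At an unadjusted p under 0.05 there were 0, 5 and 3 members, beside 2.9%, 17.2% and 15.5% of all genes. The authors' deposited adjusted p called 0 members in each, beside 0.175%, 1.91% and 1.72% of all genes. All 5 of the Sox9 members belong to ATP synthase, and Atp5j was lowest, at −0.66 ± 0.17 (limma adjusted p = 0.108). The ATP synthase median in these intronic reads was −0.26 over 13 ids, against −0.01 for all genes. With Pbx3 the intronic extremes were Ndufb2 at −0.51 ± 0.24 and Uqcrfs1 at 0.32 ± 0.33, and with Tead4 Cox7c at −0.67 ± 0.20 and Cox4i1 at 0.40 ± 0.17. Just under the minimum with Tead4 were Atp5s at 49.9 and Uqcrb at 49.6.

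The factors were also set against one another in 1 fit over the 4 groups of transfected cells. Of 72 members 0 passed for Sox9 minus Tead4, 0 for Sox9 minus Pbx3 and 0 for Tead4 minus Pbx3 (limma), against 3.56%, 0.941% and 0.787% of 9778 genes, with 11, 11 and 10 members at an unadjusted p under 0.05, beside 20.7%, 17.0% and 16.7% of all genes. The greatest difference was that of Ndufa1, which stood at 0.66 ± 0.16 for Sox9 minus Tead4 (limma adjusted p = 0.0631) and at −0.64 ± 0.16 for Tead4 minus Pbx3 (limma adjusted p = 0.105). Ndufa12 stood at −0.54 ± 0.18 for Sox9 minus Pbx3. The typical 95% interval of such a difference reached 0.33 to each side.

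The libraries of a group also differed from each other. Of the 72 members, 17 (23.6%) differed in the same order between library a and library b in all 6 groups, beside 29.5% of 9585 genes of all kinds. The letters were given by differences that the groups share, so a common order is in part set by the lettering. The widest was Ndufv3, lower in library a by a median of −0.41 on the log2 scale, from −0.72 with Pbx3 to −0.20 in Dicer WT cells. Next came Cox4nb at 0.33, Ndufa12 at 0.33, Ndufa4 at −0.25 and Ndufa13 at −0.23. Among the genes that passed, Ndufa10 (median 0.18) and Uqcrc2 (median 0.09) are among the 17. The median of all members was 0.11 in Dicer KO and 0.03 in Dicer WT. It was below 0 in the transfected groups, at −0.04 with Pbx3, −0.04 with Sox9, −0.07 with Tead4 and −0.10 with vector. With a term for library order, which is a hint from the data and not part of the design, 26 members (36.1%) passed in the Dicer KO comparison, beside 47.2% of all genes. Its part in the results was not tested further.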

How the data were processed

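The submitters' processing notes name Bowtie2, the mm9 build and DESeq 1.10.1. The signal columns that the authors deposited are means of normalised reads per group, per the file headers. The deposited ratio column is a fold change between these means, the deposited log2 column is its logarithm, and the deposited p-value columns are the authors' own raw and adjusted values. The annotation and the handling of shared reads are not given in the sources used.

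The labels list 1 sample per group, but every group mean equals whole reads of 2 libraries divided by their size factors. These reads were recovered for 100% of genes at a tolerance of 1e-09. Nothing says that the 2 libraries are separate cultures, so a p-value covers the spread between libraries only, and that spread may be technical. Letters a and b follow shared differences between libraries (median correlation across groups 0.478), which also match exonic to intronic libraries.

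Tests used limma 3.58.1 in R 4.3.3 on the log2 of normalised reads plus a pseudocount of 1, with its trend of variance on mean. They compared 2 libraries with 2, for genes with a mean of at least 50, with Benjamini-Hochberg adjustment over all genes. The code was also run on simulated data, with changes larger than that of any measured member and no difference by library order. That run does not show how the tests perform on changes of the members' size. The log2 scale understates the change of low genes. Lengths are those of principal transcripts in GENCODE M21, matched by symbol.

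Members named are those that passed, the 3 highest and 3 lowest where fewer than 4 passed, forms of one subunit, extremes of level and the 5 widest library differences. Further ones, such as near misses and Cox6a2, were picked with their values in view. The members and lists were chosen with earlier results of these data known. Values of some single genes are not reported here, although counts include them.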

Additional observations from a re-analysis of the deposited data

How the results depend on the processing

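Directions held for all 7 members that passed in exonic reads of Dicer KO cells and for Atp5j under every alternative run. Over these 8 genes, 58 of 95 gene and setting pairs kept the call, 37 lost it and 0 reversed. The count of 7 members in exonic reads of Dicer KO cells was 1 without the mean-variance trend, 0 to 2 with each library left out, 2 by the authors' deposited adjusted p, 26 with the term for library order (36.1% of members, beside 47.2% of all genes) and 17 with all 6 groups in 1 fit (23.6%, beside 23.8%). Other pseudocounts and a minimum mean of 200 left the same 7, and scaling by total reads added Ndufb2 (8). With no minimum above 0 the count was 7 with 6 shared, as Atp5a1 was lost (limma adjusted p = 0.0524) and Cox6a2 gained. In intronic reads of Dicer KO cells the count of 0 was 0 to 1 with each library left out, 14 with the order term (beside 30.5% of all genes) and 3 with 6 groups (beside 13.3%). For Sox9 the exonic 0 was 0 to 1 with a library left out and 4 with the order term (beside 18.5%), and the intronic 0 was 5 with the order term (beside 18.6%) and 1 with 6 groups (beside 1.84%). For Tead4 the exonic 0 was 0 to 9 and 1, and the intronic 0 was 0 to 3 and 3, with a library left out and with the order term. The libraries behind these were Dicer WT library a (Cox7c in intronic reads), vector library b for Sox9 (Ndufa12), vector library a for Tead4 (Ndufb11) and vector library b for Tead4 (9 exonic, 3 intronic). Pbx3 counts stayed at 0 in every alternative. The exonic minus intronic count of 1 was 0 with no minimum above 0, 3 at a minimum mean of 200, 0 without the trend, 3 with the order term and 0 to 5 with each library left out. The members' median of 0.07 in Dicer KO cells was −0.0039 without Dicer KO library a and up to 0.10 with each other library left out. The differences between factors kept 0 calls under each alternative. With a library left out, 1 group has a single library, which is assumed to vary like the other group. The cause of these shifts was not tested. Counts given here without a share of all genes beside them are not read as particular to the members.

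The labels give no replicate numbers for the 2 libraries of a group, so the design pairs none. The order term is a paired fit by the letters a and b, which came from the data: over the 66 pairs among 12 differences between libraries (6 groups, exonic and intronic reads), correlations across genes were 0.330 to 0.887, with signs that the lettering aligned. It moved the calls from 7 to 26 members in Dicer KO exonic reads. Counting limits the members near the minimum of 50, such as Atp5s and the intronic reads of Ndufs5 (52.6 in the Dicer comparison). With 2 libraries per group, a member that did not pass is not shown to be unchanged.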
